A study of Homo sapiens with 6 samples.

Results

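KIRREL and teneurin genes encode cell surface adhesion proteins, and their transcripts were measured here in TFK1 cells with and without overexpression of STUB1. The genes are KIRREL1, KIRREL2 and KIRREL3 and the teneurins TENM2, TENM3 and TENM4. They were taken by gene symbol, and 6 of 6 were found among the 23569 genes of the expression table. The genes were chosen with their values in this comparison known. Their levels are therefore given as a description, with no test. TENM1, the remaining teneurin, was added as a comparison and is not counted among the 6 genes.

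TFK1 is a cell line from a bile duct carcinoma. Cells labelled negative control (oeNC, n = 3 libraries) were compared with cells labelled STUB1 overexpression (oeSTUB1, n = 3 libraries), and no other treatment was given to either group. STUB1 is a chaperone-dependent E3 ubiquitin ligase, and the study used this comparison to look for genes controlled by STUB1 through DNA methylation. Both groups carried a lentiviral construct and were selected with puromycin, so each group is a stably transduced cell population, and the population and the STUB1 transgene cannot be told apart. The labels do not say whether the replicates of a group were separate cultures, so the errors measure the spread between these libraries, which may be technical.

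KIRREL proteins (also called Neph proteins) carry extracellular immunoglobulin domains and bind each other or nephrin between neighbouring cells. They are best known from the slit diaphragm of kidney podocytes, and KIRREL3 also from synapses in the brain. Teneurins are large transmembrane proteins with a long extracellular region that binds latrophilin receptors (ADGRL1, ADGRL2 and ADGRL3), and latrophilins bind FLRT proteins, which in turn bind UNC5 receptors. In the developing brain these contacts guide axons and specify synapses.

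Expression was read as FPKM, fragments scaled to gene length and to the fragments of the library, so levels can be compared between genes. Whole fragments could be recovered from the table, and library totals were 33106564 to 36744521 fragments. STUB1 itself had 1620 to 1636 fragments in the oeNC libraries and 3022 to 3547 in the oeSTUB1 libraries, which is the direction its label gives. Of 7 bile duct epithelial markers, KRT7, KRT8 and KRT18 were abundant, whereas KRT19, another defining keratin, was at a mean of 0.453 in oeNC and 2.97 FPKM in oeSTUB1. The summed level of these 7 markers was 7419 to 7996 FPKM in oeNC and 4724 to 6263 FPKM in oeSTUB1. That sum was mostly KRT8 and KRT18, while the KRT7 mean went the other way, at 502 in oeNC and 704 FPKM in oeSTUB1.

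One library stood apart. In replicate 2 of oeSTUB1, the 1237 tested genes longer than 10000 bases had a median log2 ratio to the oeNC mean of -0.43, against 0.09 and 0.04 in replicates 1 and 3 and -0.04 to 0.03 in the oeNC libraries. All 3 teneurins described here have an implied length above 10000 bases, while KIRREL1 has 7528, KIRREL3 4762 and KIRREL2 3079 bases. Replicate 2 was the lowest of the oeSTUB1 libraries for KIRREL1, TENM2, TENM3 and TENM4, and results that rest on it are given with and without it. The part of this library's length pattern in the levels of these genes was not tested.

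Because the study concerns DNA methylation, which acts at CG dinucleotides, the 250 bases before the annotated start of KIRREL3, TENM2, TENM3 and TENM4 are shown with each CG in capitals. KIRREL3 and TENM2 had higher levels in oeSTUB1, and TENM3 and TENM4 lower levels. Sequences were taken from RefSeq on GRCh38.p14, read 5′ to 3′ on the strand of the gene. TENM2 and TENM3 have 2 annotated starts each, of which the one with more CG is shown. KIRREL1 and KIRREL2 were not matched.
KIRREL3, chr11:127003395-127003644, minus strand: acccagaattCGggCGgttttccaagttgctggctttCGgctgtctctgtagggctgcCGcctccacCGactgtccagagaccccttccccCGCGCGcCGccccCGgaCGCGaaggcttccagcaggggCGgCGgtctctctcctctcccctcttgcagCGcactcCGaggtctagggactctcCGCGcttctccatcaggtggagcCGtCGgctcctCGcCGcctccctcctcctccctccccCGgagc
TENM2, chr5:167754679-167754928, plus strand: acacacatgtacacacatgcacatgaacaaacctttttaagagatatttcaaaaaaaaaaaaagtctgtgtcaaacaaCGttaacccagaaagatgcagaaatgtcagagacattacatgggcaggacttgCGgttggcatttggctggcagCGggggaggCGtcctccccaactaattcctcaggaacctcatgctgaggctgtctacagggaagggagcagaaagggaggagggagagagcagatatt
TENM3, chr4:182448766-182449015, plus strand: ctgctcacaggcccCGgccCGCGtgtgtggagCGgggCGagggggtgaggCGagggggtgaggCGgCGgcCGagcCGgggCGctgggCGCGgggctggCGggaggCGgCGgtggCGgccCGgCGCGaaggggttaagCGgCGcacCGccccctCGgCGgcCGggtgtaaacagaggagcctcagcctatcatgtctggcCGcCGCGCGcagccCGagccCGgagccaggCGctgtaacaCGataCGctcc
TENM4, chr11:79441031-79441280, minus strand: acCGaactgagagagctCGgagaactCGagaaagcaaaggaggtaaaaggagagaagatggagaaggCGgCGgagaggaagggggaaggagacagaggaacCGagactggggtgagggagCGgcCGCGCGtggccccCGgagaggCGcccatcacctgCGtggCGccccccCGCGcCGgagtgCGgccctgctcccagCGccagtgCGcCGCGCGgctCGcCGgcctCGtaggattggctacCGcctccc

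The KIRREL3 window held 23 CG, and 25.8% of the 35116 RefSeq promoter windows of the same length held as many or more. The TENM4 window held 27 CG (17.7% of windows held as many or more) and the TENM3 window 35 CG (5.8%). The TENM2 window held 4 CG, a number reached or exceeded in 70.7% of windows, and the window at its other start held 1. The other TENM3 start had 20 CG. The median was 11 CG over all windows and 20 CG over the 17092 windows of tested genes. The windows shown for KIRREL3 and TENM4 were thus above both medians, and both TENM2 windows were below both. The TENM3 window shown was above both medians, whereas the window at its other start equalled the median of tested genes. For TENM2 and TENM3 the start with more CG was shown, and this choice raises their place among all windows. The windows shown for these 2 genes lie inside the gene spans given below, and the other TENM3 window lies just before its span. Methylation was not analysed here, and the CG numbers describe the sequence alone.

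Across the 6 genes, the libraries of the 2 groups did not overlap for 5. KIRREL1, KIRREL3 and TENM2 were higher in each oeSTUB1 library than in any oeNC library, TENM3 and TENM4 were lower, and KIRREL2 overlapped. Of the 15353 genes whose mean over the 6 libraries reached 0.1 FPKM, 21.5% did not overlap with oeSTUB1 higher and 17.3% with oeSTUB1 lower, 38.8% in either direction. Over all 23569 listed genes this share was 29.6% in either direction. Of the 6 genes, 5 reached the mean of 0.1 FPKM and TENM4 did not, and KIRREL3 and TENM2 reached it only through their oeSTUB1 libraries. As the genes were chosen on this comparison, nothing is read from these counts.

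**Figure D1:**
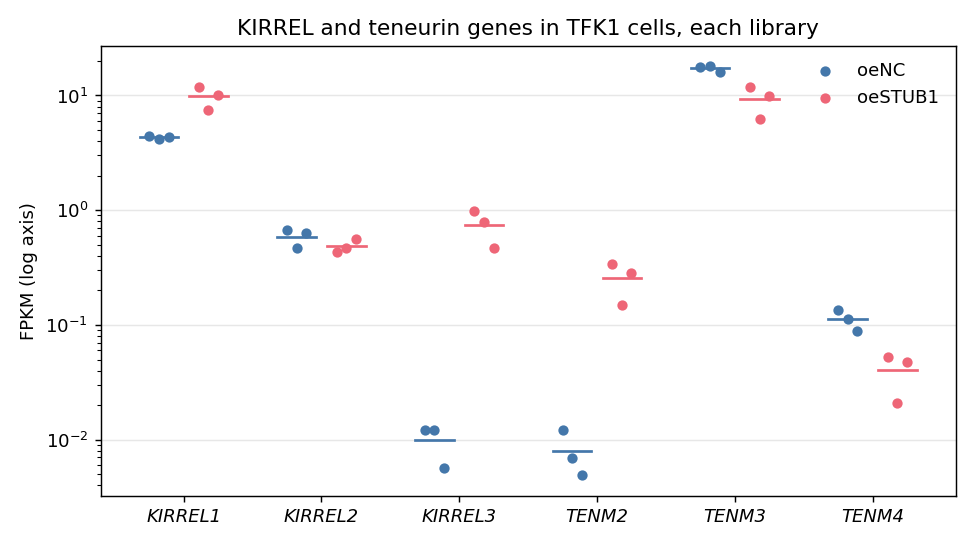
Level of KIRREL1, KIRREL2, KIRREL3, TENM2, TENM3 and TENM4 in FPKM (log axis) in each of the 3 oeNC (blue) and 3 oeSTUB1 (red) libraries, with each point a library and each line a group mean. KIRREL3 and TENM2 lie near 0.01 FPKM in oeNC, whereas TENM3 is the most abundant of the 6 genes in oeNC and KIRREL1 slightly exceeds it in oeSTUB1.

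KIRREL1, the most widely expressed member of its family, lies at chr1:157993273-158100262 on the plus strand (GENCODE release 29, GRCh38). Its level was 4.41, 4.18 and 4.36 FPKM in oeNC replicates 1, 2 and 3 and 11.9, 7.47 and 10.1 FPKM in the oeSTUB1 replicates. All oeSTUB1 libraries were above all oeNC libraries, with 1092 to 1205 fragments in oeNC and 1862 to 3075 in oeSTUB1. The mean was 4.32 ± 0.119 in oeNC and 9.82 ± 2.21 FPKM in oeSTUB1 (SD, n = 3 each), a 2.27-fold ratio. The log2 fold change, here and below the difference of group means of log2(FPKM + 0.1) with the limma standard error where the gene was fitted, was 1.14 (SE 0.16). Without replicate 2 of oeSTUB1 it was 1.32. The coefficient of variation was 2.75% in oeNC, close to the 2.95% that counting alone gives, and 22.5% in oeSTUB1, where counting gives 1.99%.

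KIRREL2 lies at chr19:35855861-35867109 on the plus strand. Its level was 0.674, 0.468 and 0.628 FPKM in oeNC and 0.434, 0.471 and 0.561 FPKM in oeSTUB1, and the groups overlapped. The means were 0.590 ± 0.108 and 0.488 ± 0.0654 FPKM in the same order (SD, n = 3 each), and the log2 fold change was -0.22 (SE 0.19). The libraries held 46 to 72 KIRREL2 fragments each. KIRREL2 shares 107 exonic bases with NPHS1, the nephrin gene, which lies on the opposite strand. Whether counting used the strand is not given in the sources used here, so part of these fragments may belong to either gene.

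KIRREL3, the synaptic member of the family, lies at chr11:126423359-127003460 on the minus strand. Its level was 0.0121, 0.0121 and 0.00572 FPKM in oeNC, at the floor of 3 fragments or fewer in each library. In oeSTUB1 it was 0.975, 0.787 and 0.467 FPKM. The exact 95% Poisson intervals of the fragments were 136 to 187, 103 to 148 and 59.9 to 95.1 in oeSTUB1 replicates 1, 2 and 3, so replicate 3 lay below the others beyond counting error. These intervals cover counting error only. Unlike KIRREL1, KIRREL3 was not lowest in replicate 2. The oeSTUB1 mean was 0.743 ± 0.257 FPKM (SD, n = 3), at least 41.7-fold above the level that 3 fragments per oeNC library would give. KIRREL3 lay above 17.4% of listed genes in oeNC and above 49.8% in oeSTUB1. The fitted log2 fold change was 2.89 (SE 0.28), which depends on the pseudocount, and it was 2.83 without replicate 2.

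KIRREL1 supplied most of the KIRREL transcripts in both groups, with 87.9% of the summed KIRREL FPKM in oeNC and 88.6% in oeSTUB1. KIRREL2 made up 11.9% in oeNC and 4.56% in oeSTUB1, and KIRREL3 0.204% and 6.85%. The FPKM ratio of KIRREL3 to KIRREL2 within a library was 0.0180, 0.0259 and 0.00911 in oeNC and 2.25, 1.67 and 0.833 in oeSTUB1, so KIRREL3 exceeded KIRREL2 in oeSTUB1 replicates 1 and 2 and not in replicate 3. The sum of the 3 KIRREL genes was 4.92 ± 0.226 in oeNC and 11.1 ± 2.27 FPKM in oeSTUB1 (SD, n = 3 each).

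TENM2 lies at chr5:167284799-168264157 on the plus strand. Its level was 0.0121, 0.00693 and 0.00491 FPKM in oeNC and 0.340, 0.149 and 0.283 FPKM in oeSTUB1. These values rest on 7, 4 and 3 fragments in oeNC and 195, 82 and 161 fragments in oeSTUB1. The exact 95% Poisson intervals spanned 0.619 to 14.4 fragments over the oeNC libraries and 65.2 to 224 over the oeSTUB1 libraries. They cover counting error only, and TENM2 was chosen on this comparison, so no group difference is read from them. The mean was 0.00799 ± 0.00372 in oeNC and 0.257 ± 0.0982 FPKM in oeSTUB1 (SD, n = 3 each), a 32.2-fold ratio of means. The log2 fold change was 1.69 (SE 0.29), and 1.93 without replicate 2 of oeSTUB1. The implied TENM2 length of 16644 bases exceeds the 11042 exonic bases of GENCODE release 29, so the annotation behind the table, which is not given in the sources used here, counted further bases.

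TENM3 lies at chr4:182143987-182803024 on the plus strand and was by far the most abundant teneurin. Its level was 17.9, 17.9 and 15.9 FPKM in oeNC and 11.8, 6.26 and 9.94 FPKM in oeSTUB1. Each oeSTUB1 library was below each oeNC library, with 6815 to 7265 fragments in oeNC and 2421 to 4747 in oeSTUB1. The mean was 17.2 ± 1.18 in oeNC and 9.33 ± 2.82 FPKM in oeSTUB1 (SD, n = 3 each), 1.85-fold higher in oeNC. The log2 fold change was -0.92 (SE 0.21), and it was -0.66 without replicate 2 of oeSTUB1, the lowest library. TENM3-AS1, the antisense transcript of TENM3, was at 2.15 ± 0.205 FPKM in oeNC (SD, n = 3), with a log2 fold change of -0.03 (limma adjusted p = 0.894).

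TENM4 lies at chr11:78652831-79440948 on the minus strand, on the same chromosome as KIRREL3. Its level was 0.135, 0.113 and 0.0882 FPKM in oeNC and 0.0524, 0.0207 and 0.0474 FPKM in oeSTUB1. All oeSTUB1 libraries were below all oeNC libraries, on 52 to 75 fragments in oeNC and 11 to 29 in oeSTUB1. The mean was 0.112 ± 0.0233 in oeNC and 0.0402 ± 0.0171 FPKM in oeSTUB1 (SD, n = 3 each), 2.79-fold higher in oeNC. The log2 fold change was -0.60, and -0.49 without replicate 2 of oeSTUB1. TENM1, by comparison, had 2 to 10 fragments in the oeNC libraries and 1 to 9 in the oeSTUB1 libraries and was near 0 in both groups.

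TENM3 supplied 99.3% of the summed FPKM of the 4 teneurins in oeNC and 96.9% in oeSTUB1, while TENM2 made up 0.0454% and 2.62% and TENM4 0.642% and 0.404%. The FPKM ratio of TENM2 to TENM4 within a library was 0.0900, 0.0612 and 0.0556 in oeNC and 6.49, 7.19 and 5.97 in oeSTUB1, so TENM4 was the more abundant of the pair in each oeNC library and TENM2 in each oeSTUB1 library. The KIRREL1 to TENM3 ratio was 0.247, 0.233 and 0.274 in oeNC and 1.01, 1.19 and 1.02 in oeSTUB1. The order of levels in oeNC was TENM3, KIRREL1, KIRREL2, TENM4, KIRREL3 and TENM2, of which KIRREL3 and TENM2 overlapped. In oeSTUB1 it was KIRREL1, TENM3, KIRREL3, KIRREL2, TENM2 and TENM4, with overlap between KIRREL1 and TENM3 and between KIRREL3 and KIRREL2.

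**Figure D2:**
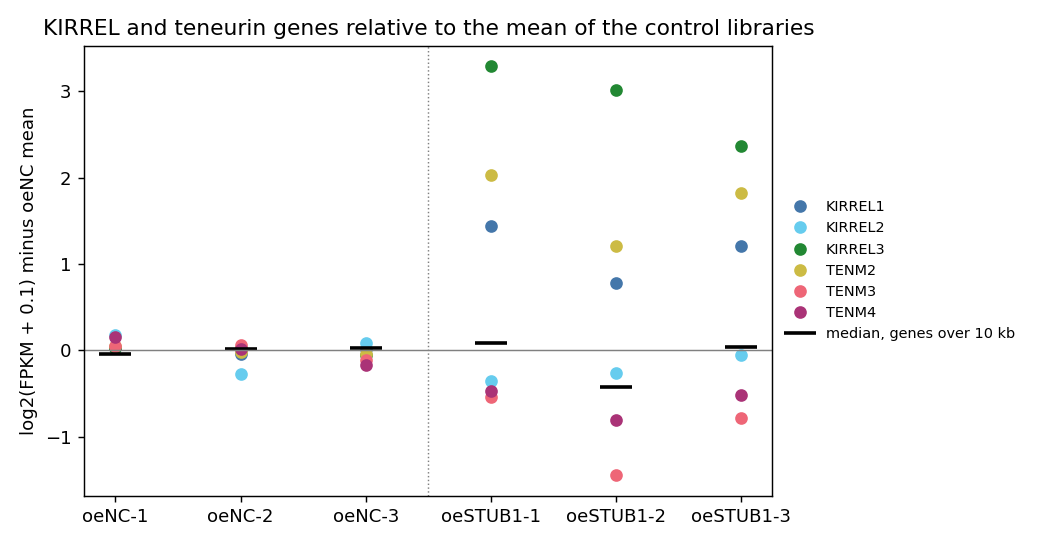
For each library, log2(FPKM + 0.1) of each of the 6 genes minus the mean of the 3 oeNC libraries, with the black bar the median of the tested genes longer than 10000 bases. In replicate 2 of oeSTUB1 the black bar is at -0.43 and KIRREL1, TENM2, TENM3 and TENM4 are at their lowest of the oeSTUB1 libraries, while each gene keeps the side of 0 it has in replicates 1 and 3.

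The known binding partners were then examined with limma over all 15353 tested genes, where a Benjamini-Hochberg adjusted p under 0.05 called 7.01% of genes higher and 6.59% lower in oeSTUB1. Of the latrophilins, the receptors of teneurins, ADGRL2 was called lower. ADGRL3 was also called lower, but it reached the mean of 0.1 FPKM only through its oeNC libraries. Of the 11 listed teneurin genes and partners (TENM1, the latrophilins, FLRT and UNC5 genes), 6 were tested, 0 were higher and 2 lower. The 6 tested genes had a median log2 fold change of -0.04 against 0.02 for all tested genes. FLRT2 and UNC5A were below a mean of 0.1 FPKM and not tested. FLRT2 had 8, 6 and 2 fragments in oeNC and 43, 49 and 48 in oeSTUB1. UNC5A had 23, 27 and 27 in oeNC and 13, 7 and 10 in oeSTUB1. At an unadjusted p under 0.05, 1 of the 6 tested genes (FLRT3) was higher, and limma-voom on the fragments also called 0 higher and 2 lower. Over all 15353 genes limma-voom called 1095 higher and 1069 lower. The share of all genes at an unadjusted p under 0.05 is not given, here or below, so nothing is read from such counts. Without replicate 2 of oeSTUB1, 14.8% of all genes were called higher and 12.0% lower, and the list had 3 higher and 2 lower genes. With each library corrected for gene length, 10.9% and 10.7% of all genes were called higher and lower, and 1 and 2 in the list. With the replicate number as a block the shares were 4.83% and 4.87%, and 1 gene of the list, FLRT3, was higher and 1, ADGRL2, lower.

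ADGRL2 was the most abundant latrophilin in oeNC, at 12.1, 12.8 and 12.0 FPKM, and was at 4.33, 2.84 and 4.34 FPKM in oeSTUB1. The groups did not overlap, and the mean fell from 12.3 ± 0.425 to 3.84 ± 0.862 FPKM (SD, n = 3 each), a log2 fold change of -1.68 (SE 0.16, limma adjusted p = 0.000696). Without replicate 2 of oeSTUB1 the log2 fold change was -1.48. ADGRL3 was at 0.192, 0.216 and 0.218 FPKM in oeNC and 0.0670, 0.0349 and 0.0537 FPKM in oeSTUB1. Its log2 fold change was -1.03 (SE 0.23, limma adjusted p = 0.0235), a call that was lost without any 1 of the oeNC libraries or replicate 3 of oeSTUB1, or with the replicate number as a block, and held without replicate 2. ADGRL3 was tested only through its oeNC libraries, where it is high, since its oeSTUB1 libraries are below 0.1 FPKM.

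ADGRL1, the remaining latrophilin, was at 4.54 ± 0.331 in oeNC and 5.10 ± 1.01 FPKM in oeSTUB1 (SD, n = 3 each; limma adjusted p = 0.564). Within each oeSTUB1 library ADGRL1 exceeded ADGRL2, at 5.28, 4.01 and 6.01 FPKM, whereas in each oeNC library ADGRL2 was the higher. FLRT3, a ligand of latrophilins, had mean levels of 7.59 in oeNC and 10.6 FPKM in oeSTUB1 and no overlap between the groups (limma adjusted p = 0.0887). UNC5D, a netrin and FLRT receptor, was at 1.14, 1.45 and 1.47 FPKM in oeNC and 2.09, 1.05 and 2.28 FPKM in oeSTUB1 (limma adjusted p = 0.467). ADGRL1, FLRT3 and UNC5D were the genes called higher without replicate 2 of oeSTUB1, with log2 fold changes of 0.31, 0.57 and 0.66.

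**Figure D3:**
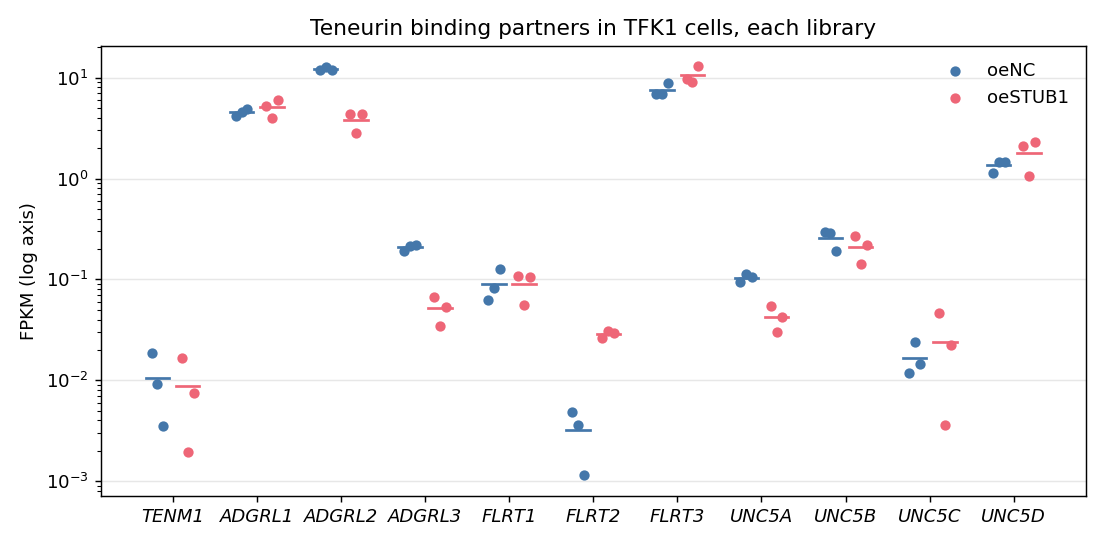
Level of TENM1 and of the latrophilin, FLRT and UNC5 genes in FPKM (log axis) in each of the 3 oeNC (blue) and 3 oeSTUB1 (red) libraries, with each point a library and each line a group mean. ADGRL2 and ADGRL3 are the genes called lower, with means going from 12.3 to 3.84 and from 0.209 to 0.0519 FPKM. ADGRL3 was tested only through its oeNC libraries, where it is high.

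The KIRREL partners include nephrin (NPHS1), the scaffold proteins CD2AP, TJP1, CASK, PARD3, MAGI1 and MAGI2, and adaptors that read phosphorylated KIRREL tails such as GRB2, NCK1 and NCK2. Of the 17 genes, 16 were in the table and 14 were tested, and 0 were called higher or lower (median log2 fold change -0.14), beside 7.01% and 6.59% of all tested genes. At an unadjusted p under 0.05 there were 5 (1 higher, 4 lower), and limma-voom on the fragments also called 0. The most abundant were IQGAP1, a cytoskeletal scaffold, at 67.9 and 68.6 FPKM (limma adjusted p = 0.962), MYO1C, a motor protein, at 62.2 and 52.7 FPKM (0.163), and GRB2 at 38.6 and 44.0 FPKM (0.112) in oeNC and oeSTUB1. NPHS1 was at 0.751 ± 0.0782 in oeNC and 0.517 ± 0.0796 FPKM in oeSTUB1 (SD, n = 3 each; limma adjusted p = 0.113). Without replicate 2 of oeSTUB1, GRB2 and IQGAP1 were called higher and MAP1B lower, with log2 fold changes of 0.17, 0.20 and -0.31, beside 14.8% and 12.0% of all genes. With the length correction 0 were higher and 3 lower, namely MAP1B (-0.53), MYO1C (-0.22) and NCK2 (-0.31), beside 10.9% and 10.7% of all genes.

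Other neuronal adhesion families were read in the same fit (neuroligins, neurexins, contactins, the L1, CADM, LRRTM, LRFN, SLITRK, DSCAM and SDK families, and receptor phosphatases). Of 48 genes, 44 were listed and 22 tested, of which 3 were higher and 2 lower (median log2 fold change -0.03), and 20 of the listed genes were below 0.1 FPKM in every library. Of all tested genes 7.01% were higher and 6.59% lower. Without replicate 2 of oeSTUB1, 7 were higher and 3 lower, beside 14.8% and 12.0% of all genes. With the length correction 6 were higher and 3 lower, beside 10.9% and 10.7% of all genes. With the replicate number as a block there were 1 and 2, beside 4.83% and 4.87%. With limma-voom there were 4 and 4, beside 1095 and 1069 of all 15353 genes.

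CHL1, an L1 family adhesion molecule, was at 3.93, 3.97 and 4.40 FPKM in oeNC and 1.03, 0.679 and 1.36 FPKM in oeSTUB1. Its log2 fold change was -1.95 (SE 0.22, limma adjusted p = 0.00128), and -1.71 without replicate 2 of oeSTUB1. DSCAML1, an immunoglobulin adhesion molecule of the retina, fell by 1.79 on the log2 scale (SE 0.25, limma adjusted p = 0.00319), with means of 0.684 ± 0.0271 in oeNC and 0.134 ± 0.0698 FPKM in oeSTUB1 (SD, n = 3 each). For both genes all oeSTUB1 libraries lay below all oeNC libraries.

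SDK1, a sidekick protein of synaptic layers, rose from 0.0560 ± 0.00587 to 0.249 ± 0.0951 FPKM (SD, n = 3 each), a log2 fold change of 1.12 (SE 0.28, limma adjusted p = 0.0342). CADM1, a synaptic and epithelial adhesion molecule, rose from 3.82 ± 0.369 to 5.95 ± 0.763 FPKM, a log2 fold change of 0.62 (SE 0.13, limma adjusted p = 0.0172). NLGN2, the neuroligin of inhibitory synapses, rose from 8.82, 9.29 and 8.90 FPKM to 11.8, 11.2 and 10.7 FPKM, a log2 fold change of 0.32 (SE 0.079, limma adjusted p = 0.0362). Each of these 3 calls was lost without any 1 of the oeNC libraries or replicate 1 of oeSTUB1, and all 3 held without replicate 2 of oeSTUB1. The SDK1 and NLGN2 calls were also lost without replicate 3 of oeSTUB1 and with the replicate number as a block, the SDK1 call with a pseudocount of 1, and the NLGN2 call with eBayes without a trend. SDK1, below 0.1 FPKM in oeNC, was tested only through its oeSTUB1 libraries, where it is high.

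**Figure D4:**
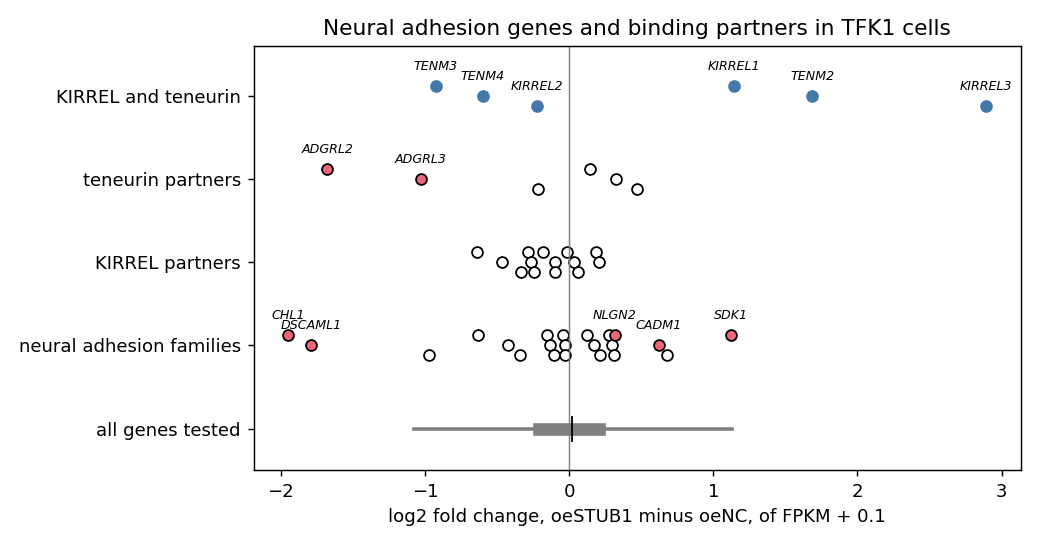
Log2 fold change of FPKM + 0.1 (oeSTUB1 minus oeNC) of the 6 KIRREL and teneurin genes (blue, no test), of tested teneurin partners, KIRREL partners and neural adhesion families (red where called at an adjusted p under 0.05, white otherwise), and of all 15353 tested genes (median, thick bar from the 25th to the 75th and thin bar the central 95% of genes). The central range of all genes runs from -1.08 to 1.13. KIRREL3 at 2.89, TENM2 at 1.69 and, just past its edge, KIRREL1 at 1.14 lie above it and ADGRL2, CHL1 and DSCAML1 below it. The 6 genes were chosen on this comparison, so nothing is read from their place against this range.

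Cell type markers were read in the same fit, where 7.01% of all tested genes were called higher and 6.59% lower. Of 12 neuronal markers, all listed, 7 were tested, with 1 higher (TUBB3) and 1 lower (NEFL), and their summed level was 105 to 111 FPKM in oeNC and 114 to 142 FPKM in oeSTUB1. Most of this sum was TUBB3, at a mean of 71.6 in oeNC and 100 FPKM in oeSTUB1. Only 1 of the 7 tested markers had a log2 fold change above 0 (median -0.22). STMN2, ELAVL3, ELAVL4, NEFM and GAP43 were at means below 0.1 FPKM in both groups. Of 7 podocyte markers, 4 were tested and WT1 was lower, with a summed level of 12.9 to 13.7 FPKM in oeNC and 12.2 to 17.1 FPKM in oeSTUB1. Of 9 fibroblast markers, 2 were tested and 0 called by limma or limma-voom (2 at an unadjusted p under 0.05), with a summed level of 1.31 to 2.36 FPKM in oeNC and 2.16 to 4.05 FPKM in oeSTUB1. That sum was mostly COL1A1, at a mean of 1.62 in oeNC and 2.81 FPKM in oeSTUB1. Of the 7 bile duct epithelial markers, KRT8, KRT18, EPCAM and CDH1 were lower and KRT19 higher. These marker calls moved with the setting. With the replicate number as a block, 4.83% of all genes were called higher and 4.87% lower. In that setting 1 bile duct marker was higher and 2 lower, against 0 and 1 for neuronal, 0 and 1 for podocyte and 1 and 0 for fibroblast markers. Without replicate 2 of oeSTUB1, 14.8% of all genes were called higher and 12.0% lower. The counts were then 2 and 4 for bile duct, 1 and 1 for neuronal, 2 and 1 for podocyte and 0 and 1 for fibroblast markers. In bulk RNA fewer cells of a type and less RNA per cell cannot be told apart, and the part of these markers in the KIRREL and teneurin levels was not tested.

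The nearest tested genes on the chromosome, 2 on each side of each of the 6 genes, gave 24 neighbours, of which 1 was higher, 2 lower and 21 not called. Of all tested genes 13.6% were called in either direction, so the share among the neighbours was near the background. IFI16, an interferon-inducible DNA sensor 899.7 kb from KIRREL1, rose from 0.175 ± 0.0350 to 0.781 ± 0.0820 FPKM (SD, n = 3 each; log2 fold change 1.68, limma adjusted p = 0.00127). PRODH2, a hydroxyproline dehydrogenase gene 38.6 kb from KIRREL2, fell from 3.57 ± 0.332 to 1.00 ± 0.324 FPKM (log2 fold change -1.77, limma adjusted p = 0.00144). GAB2, a signalling adaptor 235 kb from TENM4, fell from 2.73 ± 0.459 to 1.03 ± 0.352 FPKM (log2 fold change -1.36, limma adjusted p = 0.0119), a call lost without replicate 3 of oeNC. None of the neighbours of KIRREL3, TENM2 or TENM3 was called. Without replicate 2 of oeSTUB1, ETS1, 1455.4 kb from KIRREL3, was higher (log2 fold change 0.55) and APLP1, 1.4 kb from KIRREL2, was lower (-0.33). Both were also called with the length correction (0.44 and -0.34). WWC1, 27.5 kb from TENM2, was at 19.2 ± 0.238 in oeNC and 21.0 ± 1.65 FPKM in oeSTUB1 (SD, n = 3 each; limma adjusted p = 0.354).

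For each gene that reached a mean of 0.1 FPKM, the most alike genes were ranked by Pearson's r of log2(FPKM + 0.1) over the 6 libraries among 11375 genes whose mean reached 1 FPKM. All points share the same 6 libraries in 2 groups, so r also reflects the difference between the groups and is given as a description. KIRREL1 was most like THBS1, a matrix thrombospondin (r = 0.999), TNS4 (0.997) and SLC35A5 (0.997). TENM2 was most like TGFB2, TNS4 and KIRREL1 (r = 0.998 each), so KIRREL1 and TENM2 shared a pattern over the libraries, highest in replicate 1 and lowest in replicate 2 of oeSTUB1. KIRREL3 was most like ETF1 (r = 0.999), TIGAR (0.999) and SRSF10 (0.998), and TENM3 most like MAP3K21 (0.998), SF3B1 (0.997) and PRKAB2 (0.997). KIRREL1, KIRREL3, TENM2 and TENM3 had 284 to 436 genes at r above 0.95. KIRREL2, whose groups overlapped, had 1, HOXC8 (r = 0.978), followed by CACNG6 (0.948) and ARMT1 (0.941).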

How the data were processed

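The RNA-seq libraries of TFK1 cells, 3 oeNC and 3 oeSTUB1, were grouped by the sample labels. The authors deposited FPKM values for 23569 genes by symbol. The submitters' processing notes name fastp 0.20.1, HISAT2 2.1.0, HTSeq 0.11.2, R 3.2.0, DESeq2 1.22.2 and build GRCh38.p13, and the annotation and the strand setting are not given in the sources used here. Whole fragments were recovered for 23569 genes (100.0%), with recomputed FPKM within 4.9e-06 of the table, and the true fragments of a gene may be a whole multiple of those recovered. Value columns of no mapped sample numbered 0.

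Genes whose mean reached 0.1 FPKM were compared with limma 3.58.1 in R 4.3.3 (eBayes with trend, two-sided) on log2(FPKM + 0.1) with Benjamini-Hochberg adjustment, since FPKM values are not counts. Such fold changes understate low genes. A gene with at most 3 fragments in each library of a group was at the floor. Chi-square per gene between replicates was 3.483 to 82.596, so none was a copy. An exact permutation test of 3 against 3 libraries cannot go below p = 0.1 and was not used. Positions are those of GENCODE release 29, and promoter windows and gene order those of RefSeq GRCh38.p14. The recovery and the limma fit were checked by simulation, where 200 of 200 genes changed 4-fold were called with the right sign among 15354. A further 24 unchanged genes were called, a larger share of the calls than the adjusted p threshold of 0.05. Only 4-fold changes were simulated. Nothing is therefore read from this check for smaller changes such as that of NLGN2 (log2 fold change 0.32). The same holds for genes near the filter and for a library with a length pattern.

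The genes and lists were chosen with earlier results of these data known. Named were the 6 genes, STUB1, called partner genes and the 3 most abundant others, up to 6 called neural adhesion genes, the 3 most alike genes and 2 neighbours on each side. Other named genes were chosen after their values were seen. Alternatives tried were no filter, a filter at 1 FPKM, pseudocounts of 1 and 0.01, median-ratio scaling, eBayes without trend, the replicate number as a block, limma-voom on fragments and leaving out each library. A correction of each library by a lowess curve on gene length was added after the data were seen.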

Additional observations from a re-analysis of the deposited data

How the results depend on the processing

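No direction of the 6 KIRREL and teneurin genes reversed in any alternative that gave a value. Where the groups did not overlap, leaving out a library or changing the pseudocount or filter could not reverse it. Nothing is therefore read from the unchanged directions. With a pseudocount of 1 the log2 fold changes were 0.78 for KIRREL3, 0.32 for TENM2 and -0.10 for TENM4, and with 0.01 they were 5.19, 3.84 and -1.33. With limma-voom they were 5.84 for KIRREL3 and 4.88 for TENM2, and 4 neural adhesion genes were lower. Without a filter, 932 of 23569 genes were called higher and 867 lower. Of the partner genes 1 (FLRT2) was then higher and 3 lower, UNC5A among them. With a filter at 1 FPKM, which leaves out KIRREL2, KIRREL3, TENM2 and TENM4, 1 partner and 1 neural adhesion gene were lower. TENM4 was fitted neither by limma-voom nor with the length correction. For the other genes the length correction gave log2 fold changes of 1.19 (KIRREL1), -0.26 (KIRREL2), 2.88 (KIRREL3), 1.82 (TENM2) and -0.82 (TENM3). The length correction, chosen after seeing the data, called 1675 genes higher and 1647 lower, 1 partner gene higher and 5 lower, and 6 neural adhesion genes higher. Leaving out 1 library at a time gave 477 to 2274 genes higher (2274 without oeSTUB1 replicate 2 and 477 without oeNC replicate 2) and 456 to 1838 lower, 0 to 5 partner genes higher and 1 to 3 lower, and 0 to 7 neural adhesion genes higher and 2 to 3 lower. Log2 fold changes then ranged from 1.00 to 1.32 for KIRREL1, -0.36 to -0.13 for KIRREL2, 2.69 to 3.15 for KIRREL3, 1.52 to 1.93 for TENM2, -1.11 to -0.66 for TENM3 and -0.68 to -0.49 for TENM4. Same-numbered libraries did not deviate together over the tested genes (r = -0.049, -0.052 and 0.062). With so few libraries these values cannot exclude a shared culture or preparation, and the labels give only the number. With the replicate number as a block, 741 genes were higher and 747 lower, 1 partner gene was higher and 1 lower, and 1 neural adhesion gene was higher. The cause of these shifts was not tested. Depth limits KIRREL2, KIRREL3, TENM2 and TENM4, with 1 to 75 fragments in each oeNC library.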
